A study of Mus musculus with 16 samples.

Results

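IRE1 and ATF6 are sensors of protein folding stress in the endoplasmic reticulum (ER), and 9 genes of their branches were examined in brown adipose tissue (BAT). The genes were chosen by name and role: Ern1 (which encodes IRE1), Traf2, Xbp1, Atf6, Atf6b, Mbtps1, Mbtps2, Creb3 and Creb3l2. They are 9 of the 51060 genes to which the quantified transcripts belonged, and all 9 passed the filter on low counts. BAT was taken from 7-week-old C57Bl/6J mice homozygous for a floxed Opa1 allele, and RNA was sequenced from 16 animals. The 8 OPA1 BKO mice (4 females and 4 males) also carried Cre recombinase driven by the Ucp1 promoter, whereas the 8 WT mice (4 females and 4 males) carried the floxed allele without Cre. Opa1 encodes a protein of the inner mitochondrial membrane needed for its fusion, and the comparison asks how the sensor genes differ when thermogenic adipocytes lose it. Cre under this promoter acts in adipocytes that express Ucp1, while the RNA came from whole tissue, so that fewer cells of a type and less RNA per cell cannot be told apart.

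IRE1 is a kinase and an endoribonuclease of the ER membrane. When unfolded proteins accumulate it cuts an internal piece out of Xbp1 mRNA, and the rejoined message encodes XBP1s, a transcription factor that drives genes for protein import, folding and secretion, while TRAF2 binds the kinase part and links it to JNK signalling. ATF6 and its relative ATF6B are ER membrane proteins that move to the Golgi under stress, where the proteases S1P (Mbtps1) and S2P (Mbtps2) release a transcription factor that drives ER chaperone genes. CREB3 and CREB3L2 are membrane-bound factors of the same build, released by the same proteases. Neither the cutting by IRE1 nor the cleavage of ATF6 is read by the level of their own mRNA.

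The piece that IRE1 removes from Xbp1 is shown because it fixes what these files can say about splicing. In the annotated transcript Xbp1-201 a pair of CNGCNG motifs lay 26 bases apart in exon 4, at chr11:5524279-5524304 on the + strand of GRCm38. The sequence below runs 5′ to 3′ over chr11:5524239-5524344, with the 26 bases in capitals.
Xbp1 exon 4: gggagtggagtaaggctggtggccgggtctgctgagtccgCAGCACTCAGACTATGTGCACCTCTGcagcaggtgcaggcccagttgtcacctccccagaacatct
Removal of these bases lengthened the reading frame of Xbp1-201 from 267 to 371 codons. The piece was present in 3 annotated transcripts (Xbp1-201, Xbp1-203 and Xbp1-204), and 0 introns of 26 bases were annotated in any Xbp1 transcript. Of the 30 words of 31 bases that would span the rejoined ends, 6 occur in the listed Xbp1 transcripts. Reads were assigned to annotated transcripts, so spliced and unspliced Xbp1 were counted together and the spliced share was not measured.

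The libraries held 13607283 to 23114534 estimated counts each. Opa1 itself averaged 184 ± 18.3 CPM in the 8 WT and 26.1 ± 7.32 CPM in the 8 OPA1 BKO mice (SD), a log2 fold change of -2.82 ± 0.15 (SE). Transcripts of the mitochondrial genome took 23.3% to 30.5% of the counts of WT mice and 4.44% to 9.02% of those of OPA1 BKO mice. Levels between mice are given as CPM (a gene's share of all counts of a mouse, on the usual scale) scaled by TMM, a method that centres the bulk of genes at no difference; with library size alone in its place the median log2 fold change over all genes moved from 0.01 to 0.57. Some markers of cell types also differed between genotypes. All 8 macrophage markers were higher (their sum was 71.2 to 104 CPM for WT and 105 to 495 CPM for OPA1 BKO mice), and the 8 brown adipocyte markers summed to 14312 to 21578 CPM for WT and 8400 to 13935 CPM for OPA1 BKO mice, with 1 called higher, 3 lower and 4 not called. The 4 skeletal muscle markers summed to 14.8 to 4865 CPM for WT and 1.82 to 11802 CPM for OPA1 BKO mice, and their adjusted p was from 0.329 to 0.394 (edgeR). Of the lymphocyte markers 2 of 4 were lower, of the endothelial markers 2 of 3 were lower, and of the markers of fibroblasts and preadipocytes 2 of 3 were higher. As 20.8% of all genes tested were called higher and 20.2% lower, such counts among 3 or 4 markers say little. Of the plasma cell markers, Jchain and Mzb1 were below the filter and Sdc1 was not called. The part of these markers in the results was not tested, except that the fit was repeated without the 6 mice (2 WT and 4 OPA1 BKO) above 2000 CPM of muscle markers.

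With an adjusted p under 0.05 in edgeR's quasi-likelihood test as the call, 6 of the 9 genes were higher in OPA1 BKO mice (Ern1, Atf6, Mbtps2, Traf2, Creb3l2 and Xbp1), 1 was lower (Creb3) and 2 were not called (Atf6b and Mbtps1). Of all 15632 genes tested, 20.8% were higher and 20.2% were lower. The 8 OPA1 BKO mice did not overlap the 8 WT mice for 5 of the genes, 4 of them higher (Ern1, Atf6, Mbtps2 and Traf2) and 1 lower (Creb3). Over all genes, 5.07% lay wholly higher in this way and 4.89% wholly lower. The median log2 fold change was 0.36 over the 9 genes and 0.01 over all genes. Without the 6 mice rich in muscle markers, 5 were higher and 1 lower, where 14.2% of all genes were higher and 12.3% lower, and with transcripts of the mitochondrial genome removed the counts were 6 and 1.

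**Figure D1:**
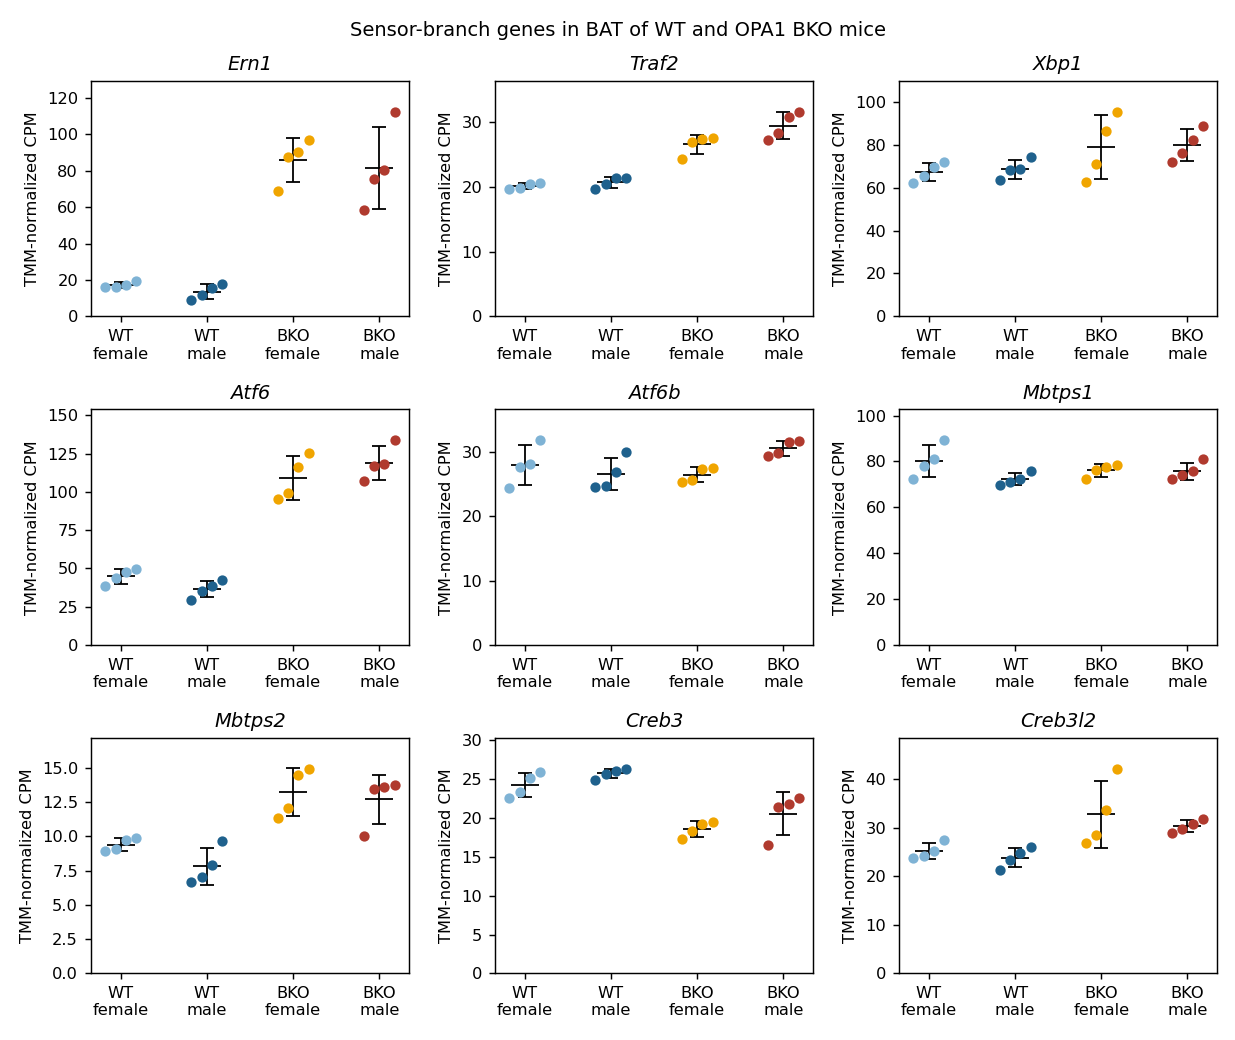
Level of each of the 9 genes in every mouse, as TMM-normalized CPM on axes that start at 0, by genotype and sex (4 mice per group). Points are mice, and bars give the mean ± SD. Ern1 and Atf6 stood wholly above WT in OPA1 BKO mice of both sexes, Traf2 and Mbtps2 did so by less, Creb3 lay wholly below with TMM scaling, and the remaining genes overlapped.

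The gene of the IRE1 sensor showed the largest difference of the 9. Ern1 (chr11:106394650-106487852, - strand) ranged from 8.85 to 19.6 CPM with a median of 16.1 in WT mice, and from 58.4 to 112 CPM with a median of 83.9 in OPA1 BKO mice. Every OPA1 BKO mouse, the lowest of them the male S12, lay far above the highest WT mouse, the female S13. Ern1 was 5.46-fold higher, with a log2 fold change of 2.45 ± 0.15 (SE, adjusted p = 6.27e-09, edgeR) and rank 109 from the highest of 15632 genes. It rested on 116 to 396 estimated counts per WT mouse and 961 to 3060 per OPA1 BKO mouse. Call and direction held in all 29 alternatives tried, with log2 fold changes from 2.31 to 3.11.

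Traf2 (chr2:25517982-25546940, - strand), the adaptor that ties IRE1 to JNK, ranged from 19.6 to 21.4 CPM with a median of 20.5 in WT mice and from 24.4 to 31.6 CPM with a median of 27.5 in OPA1 BKO mice. The groups did not overlap, and the WT mice were tightly spaced. Its log2 fold change was 0.45 ± 0.05 (SE, adjusted p = 4.42e-06, edgeR). Of 14 further IRE1 partners that passed the filter, 3 were higher, 4 were lower and 7 were not called. Over all genes, 20.8% were higher and 20.2% lower, and neither count stood far from these shares. The median log2 fold change of these partners was -0.06 against 0.01 over all genes. The highest was Tmbim6, which encodes the IRE1 inhibitor BI-1, at 1.14 (log2), from 516 ± 41.5 CPM in the 8 WT to 1146 ± 174 CPM in the 8 OPA1 BKO mice (SD). Bax, a cell death effector reported to bind IRE1, followed at 0.38 and the JNK kinase gene Mapk8 at 0.33. The lowest were Dab2ip, a scaffold of the IRE1 to JNK route, at -0.52, Zbtb8os, a cofactor of the ligase that rejoins Xbp1 mRNA, at -0.36 and Bak1, which acts with Bax in cell death, at -0.35. The catalytic ligase gene Rtcb was at 0.08 and was not called (adjusted p = 0.234, edgeR). Ern2, the IRE1 gene of mucosal epithelia, had 0 counts in every mouse.

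Xbp1 (chr11:5520659-5525893, + strand) differed far less than the gene of the enzyme that cuts it. It ranged from 62.2 to 74.0 CPM with a median of 68.4 in WT mice and from 62.7 to 95.3 CPM with a median of 79.2 in OPA1 BKO mice. The groups overlapped, and 5 of the 8 OPA1 BKO mice exceeded the highest WT mouse. Xbp1 was 1.17-fold higher, with a log2 fold change of 0.22 ± 0.08 (SE, adjusted p = 0.0323, edgeR). The call was lost within females (log2 fold change 0.23, adjusted p = 0.187, edgeR) and within males (0.22, adjusted p = 0.153, edgeR). Each of these rests on 4 mice per genotype, and their values lie close to that of both sexes. The call was lost without the muscle-rich mice, where the log2 fold change was 0.18 (adjusted p = 0.283, edgeR). It was also lost on leaving out any 1 of 8 mice, the WT mice S05, S07, S11 and S13 and the OPA1 BKO mice S02, S04, S12 and S14, with adjusted p from 0.053 to 0.0776 (edgeR) and log2 fold changes from 0.17 to 0.22.

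Genes that XBP1s is known to drive were counted from a written list. Of 29 XBP1s targets, 14 were higher, 1 was lower and 14 were not called, where 20.8% of all genes were higher and 20.2% lower. Their median log2 fold change was 0.22 against 0.01 over all genes. The largest were Edem1, which takes misfolded glycoproteins to degradation, at 1.46 (62.2 ± 6.20 CPM for WT and 172 ± 26.9 CPM for OPA1 BKO mice, SD, n = 8 each), the ER membrane protein gene Wfs1 at 1.36 and the COPII coat gene Sec24d at 0.85. The lowest was Ssr4 of the translocon-associated complex at -0.39. Dnajb9, the ER co-chaperone often read as an XBP1s target, averaged 36.9 ± 11.2 CPM for WT and 44.2 ± 6.91 CPM for OPA1 BKO mice (SD, n = 8 each) and was not called (adjusted p = 0.164, edgeR). It was named after its value was seen. Of the 29, 4 were called higher in females, 14 in males and 9 without the muscle-rich mice, where 8.96%, 17.9% and 14.2% of all genes tested were called higher in the same fits. The difference of these counts between sexes was not tested.

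IRE1 can also cut other messages, an activity called RIDD. Of 10 genes described as RIDD substrates, 1 was higher, 2 were lower and 7 were not called, with a median log2 fold change of 0.07. The shares over all genes were 20.8% higher and 20.2% lower, so the count of lower substrates was near that of the whole table. Bloc1s1, a widely used reporter of this cutting, averaged 73.5 ± 13.2 CPM for WT and 49.5 ± 5.56 CPM for OPA1 BKO mice (SD, n = 8 each). On the log2 scale Bloc1s1 differed by -0.56 with TMM scaling (adjusted p = 0.000177, edgeR), and the groups overlapped. With library size alone, and with limma on log2(TPM + 0.5), 0 of the 10 substrates were called lower. In those fits 2.39% and 0.755% of all genes were called lower. Tapbp, which loads peptides on MHC class I, was at -0.50 and its groups did not overlap, as for the 4.89% of all genes that lay wholly lower. Itgb2, an integrin gene of leukocytes, was higher at 1.65. Log2 fold changes of the other 7 were -0.24 for Pdgfrb, -0.08 for Hgsnat, 0.04 for Scara3, 0.10 for Ergic3, 0.13 for Sparc, 0.16 for Col6a1 and 0.22 for Pmp22.

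The ATF6 sensor gene was the next largest after Ern1, and its relative Atf6b was not called. Atf6 (chr1:170704674-170867771, - strand) ranged from 29.6 to 49.5 CPM with a median of 40.5 in WT mice and from 95.4 to 134 CPM with a median of 117 in OPA1 BKO mice. All OPA1 BKO mice lay above all WT mice. Atf6 was 2.81-fold higher, with a log2 fold change of 1.49 ± 0.10 (SE, adjusted p = 1.61e-08, edgeR) and rank 395 from the highest, and this held in all 29 alternatives with values from 1.28 to 2.33. Atf6b (chr17:34647146-34655074, + strand) ranged from 24.4 to 31.8 CPM with a median of 27.2 in WT mice and from 25.3 to 31.7 CPM with a median of 28.4 in OPA1 BKO mice. These ranges lay almost on each other. For Atf6b the log2 fold change was 0.06 with a 95% interval from -0.09 to 0.21 (adjusted p = 0.504, edgeR).

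Of 18 ATF6 targets, 14 were higher, 1 was lower and 3 were not called, where 20.8% of all genes were higher and 20.2% lower. Their median log2 fold change was 0.49 against 0.01 over all genes. Sdf2l1, a partner of the chaperone BiP, had the largest value at 1.53 from a low level of 1.28 ± 0.44 CPM (SD, n = 8) in WT. Edem1 followed at 1.46 and Sel1l, which holds the ER degradation complex together, at 0.77, whereas Syvn1, the ubiquitin ligase of that complex, was lower at -0.30. The list shares 4 genes with the XBP1s targets (Edem1, Pdia6, Dnajc3 and Dnajb11), so that the lists are not independent. Of the 18, 8 were called higher in females, 13 in males and 12 without the muscle-rich mice, against the same 8.96%, 17.9% and 14.2% of all genes. With library size alone, 0 of the genes in these lists were called lower, where 2.39% of all genes tested were. With limma on log2(TPM + 0.5) the count was also 0, where 0.755% of all genes were called lower. Both counts are near these shares. With RLE size factors the counts of lower genes were the same as with TMM.

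**Figure D2:**
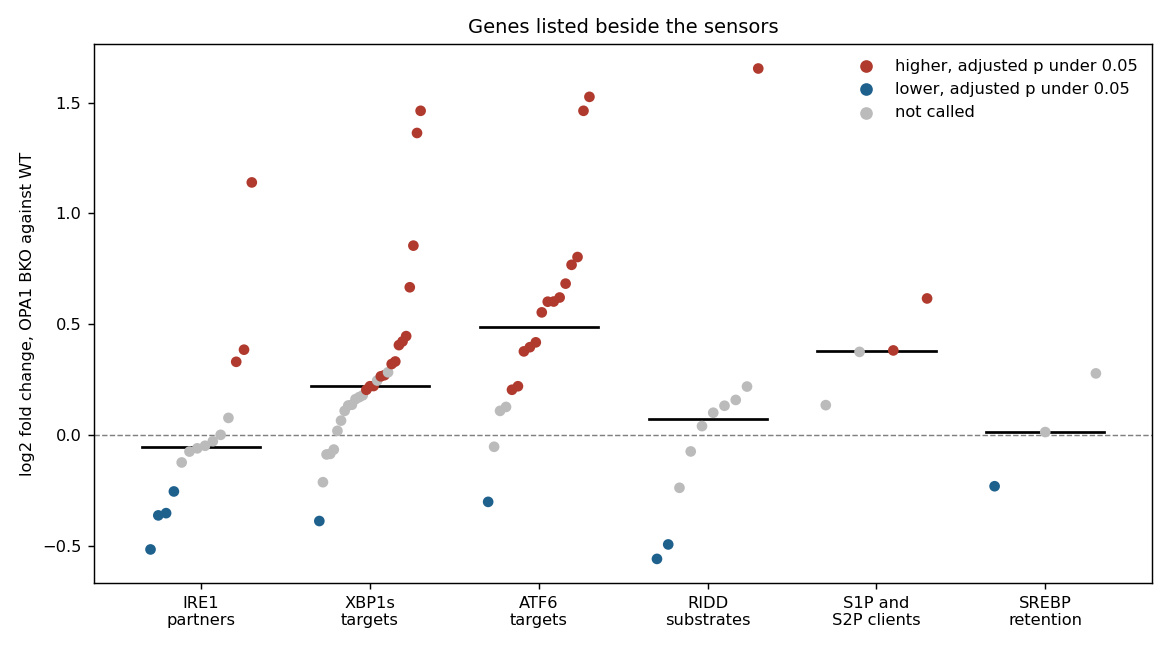
Log2 fold change of OPA1 BKO against WT mice (edgeR with TMM, n = 8 per genotype) for every tested gene of the written lists. Points are genes coloured by call, and black lines are medians. ATF6 targets had a median of 0.49 with 14 of 18 called higher and XBP1s targets one of 0.22 with 14 of 29. Of all genes 20.8% were called higher. IRE1 partners and RIDD substrates lay around 0.

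The proteases that release ATF6 did not move together. Mbtps1 (chr8:119508156-119558735, - strand), the S1P gene, ranged from 69.9 to 89.3 CPM with a median of 74.1 in WT mice and from 72.2 to 80.9 CPM with a median of 76.0 in OPA1 BKO mice. The ranges were nested, and the log2 fold change was -0.004 with a 95% interval from -0.11 to 0.11 (adjusted p = 0.957, edgeR). Mbtps2 (chrX:157535371-157598715, - strand), the S2P gene, ranged from 6.64 to 9.85 CPM with a median of 9.01 in WT mice and from 10.03 to 14.9 CPM with a median of 13.5 in OPA1 BKO mice. The groups did not overlap, but the gap between the highest WT and the lowest OPA1 BKO mouse was narrow. For Mbtps2 the log2 fold change was 0.59 ± 0.10 (SE, adjusted p = 0.000194, edgeR). Yy2 overlaps Mbtps2, and other genes share 31.1% of the 31-base words of Mbtps2, so that reads assigned to it are less certain.

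Other clients of S1P and S2P were read from the same fit. Creb3l1 was higher at a log2 fold change of 0.62 and the cholesterol regulator gene Srebf2 at 0.38. Neither overlapped between genotypes, as for the 5.07% of all genes that lay wholly higher. Srebf1, the lipogenic member, was at 0.13 (adjusted p = 0.558, edgeR) and Creb3l3 at 0.37 (adjusted p = 0.451, edgeR), and Creb3l4 was below the filter. Of the SREBP retention list, whose genes control whether SREBP proteins leave the ER, Insig2 was lower at -0.23 with TMM scaling. Scap was at 0.01 and Insig1 at 0.28, and neither was called.

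The 2 membrane-bound CREB3 factors went opposite ways with TMM or RLE scaling, but not with library size alone or limma on TPM. Creb3 (chr4:43562332-43567060, + strand) ranged from 22.6 to 26.3 CPM with a median of 25.4 in WT mice and from 16.5 to 22.5 CPM with a median of 19.3 in OPA1 BKO mice. The highest OPA1 BKO mouse lay just under the lowest WT mouse. The log2 fold change was -0.35 ± 0.06 (SE, adjusted p = 0.00036, edgeR) with TMM, but 0.20 with library size alone and 0.67 with limma on TPM, each again past the threshold. Creb3 overlaps Tln1 and Gba2, and other genes share 17.8% of its 31-base words. Creb3l2 (chr6:37327255-37442146, - strand) ranged from 21.3 to 27.5 CPM with a median of 24.5 in WT mice and from 26.8 to 42.2 CPM with a median of 30.3 in OPA1 BKO mice. Of the 8 OPA1 BKO mice 7 exceeded the highest WT mouse, and the female S02 was the highest. For Creb3l2 the log2 fold change was 0.36 ± 0.08 (SE, adjusted p = 0.00213, edgeR).

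**Figure D3:**
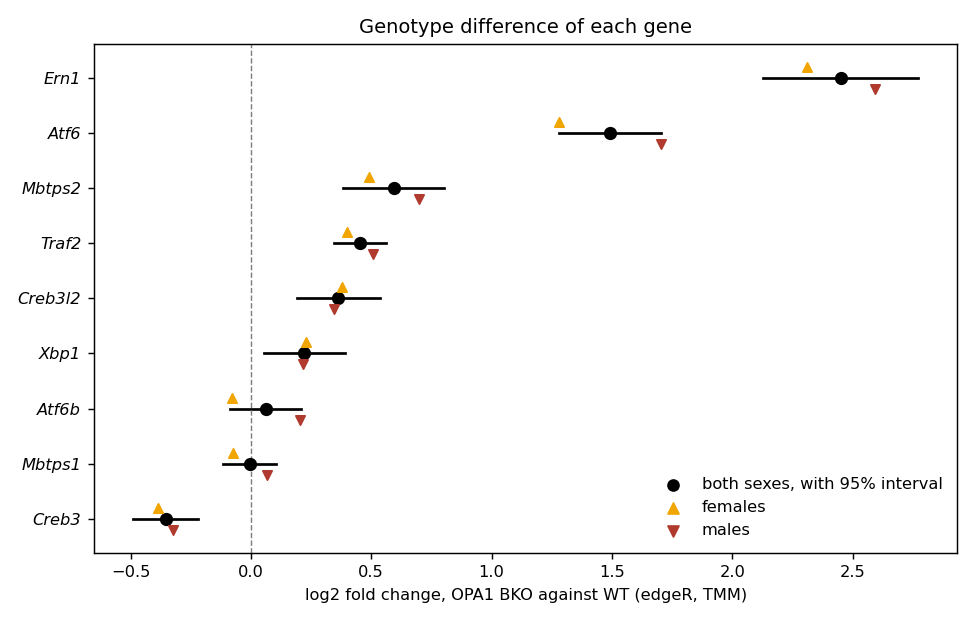
Log2 fold change of OPA1 BKO against WT mice for the 9 genes (edgeR with TMM). Black points with lines give both sexes with 95% intervals (n = 8 per genotype), and triangles give females and males alone (n = 4 per group). Ern1 at 2.45 and Atf6 at 1.49 stand apart from the other genes, which lie between -0.35 and 0.59, and the value of Creb3 turns positive with library size alone (0.20) and with limma on TPM (0.67).

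Long transcripts were higher as a group in OPA1 BKO mice, and the main transcripts of Ern1 (6946 bases), Atf6 (7246 bases) and Creb3l2 (7082 bases) are long. The median log2 fold change was -0.12 over the 2594 genes whose main transcript had at most 1000 bases and 0.13 over the 783 genes with 6000 to 8000 bases. Among those 783 genes, Ern1 held rank 4 and Atf6 rank 17 by log2 fold change. With the trend with length removed in each mouse, an alternative chosen after seeing the data, the log2 fold changes were 2.34 for Ern1, 1.38 for Atf6 and 0.25 for Creb3l2 (adjusted p = 0.035, edgeR).

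Levels of different genes can be set side by side only per length, as TPM (the count divided by transcript length and scaled to 1 total per mouse). In WT mice Xbp1 had the highest mean TPM at 33.0 ± 3.21 (SD, n = 8), followed by Mbtps1 at 21.5 ± 3.21 and Creb3 at 17.4 ± 2.69. Then came Atf6b at 9.84 ± 1.40, Traf2 at 7.63 ± 0.52, Atf6 at 4.87 ± 1.08, Creb3l2 at 3.17 ± 0.25, Mbtps2 at 2.11 ± 0.67 and Ern1 at 1.96 ± 0.50 (TPM, SD, n = 8). Ern1 was thus last in WT, and its order against Mbtps2 was not settled, since Mbtps2 was above it in 5 of 8 mice. In OPA1 BKO mice Xbp1 led at 73.7 ± 9.81 TPM, followed by Mbtps1 at 37.8 ± 3.30, Creb3 at 27.9 ± 4.21, Atf6 at 26.3 ± 3.77, Ern1 at 20.7 ± 4.67, Traf2 at 20.5 ± 1.996, Atf6b at 19.98 ± 2.36, Creb3l2 at 7.80 ± 1.24 and Mbtps2 at 6.72 ± 1.95 (SD, n = 8). Ern1, Traf2 and Atf6b did not differ beyond their spread there, with Ern1 above Traf2 in 4 of 8 mice and Traf2 above Atf6b in 5 of 8. Creb3 was above Atf6 in 5 of 8 and Atf6 above Ern1 in 7 of 8. Over all genes the median log2 difference in TPM between genotypes was 0.81, so only the order within a genotype is read here.

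A ratio of TPM within a mouse does not depend on scaling between mice. For 8 ratios, exact two-sided permutation tests of 8 against 8 mice were made, for which the smallest possible p is 0.000155. The ratios were chosen after seeing the data, with Ern1 and Atf6 known not to overlap between genotypes in these same mice. Their p-values therefore describe these mice and add no support to that separation. The ratio of Ern1 to Atf6 was 0.397 in WT and 0.775 in OPA1 BKO mice, a log2 difference of 0.96 (exact permutation p = 0.000155). Ern1 to Xbp1 differed by 2.26, Ern1 to Traf2 by 1.99 and Atf6 to Atf6b by 1.43 on the log2 scale, each with the same exact p and no overlap of the genotypes. Against Eif2ak3, the gene of the third sensor PERK (log2 fold change 0.65, adjusted p = 0.000156, edgeR), Ern1 was higher by 1.84 and Atf6 by 0.87 on the log2 scale, again with an exact permutation p of 0.000155. Mbtps2 to Mbtps1 differed by 0.85 (exact permutation p = 0.00373) and Creb3l2 to Creb3 by 0.61 (exact permutation p = 0.000466), and both of these overlapped.

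**Figure D4:**
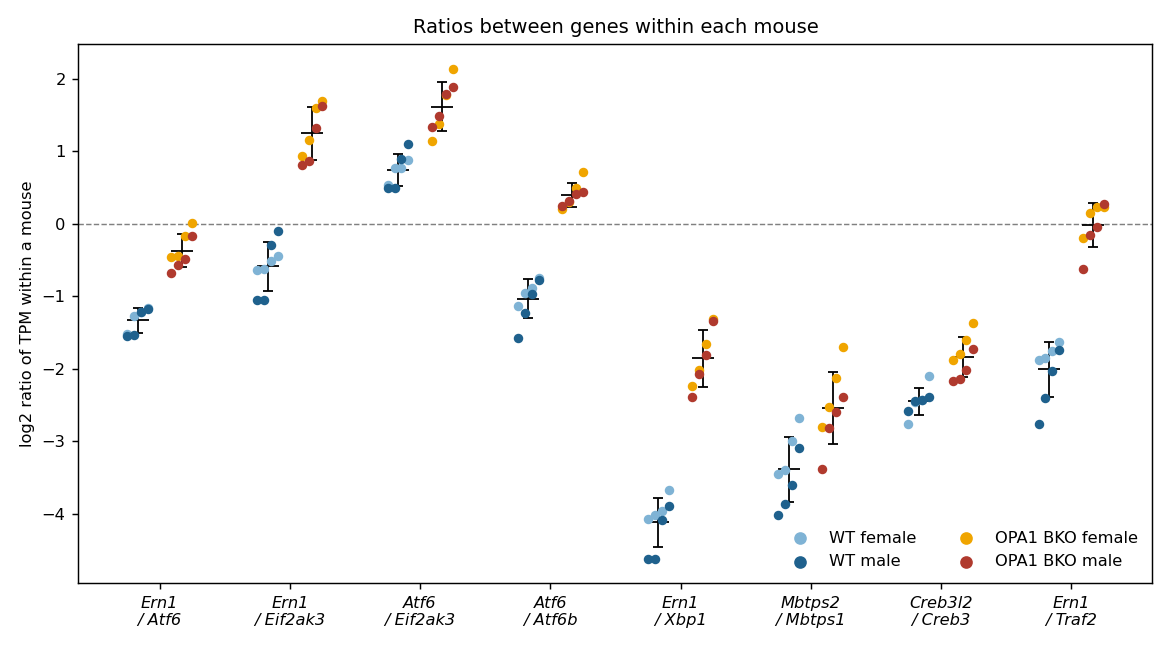
Log2 ratio of TPM between 2 genes within each mouse, with WT on the left and OPA1 BKO on the right of each pair. Points are mice and bars the mean ± SD (n = 8 per genotype). The genotypes separate fully for ratios of Ern1 or Atf6 to other genes, and overlap for Mbtps2 to Mbtps1 and Creb3l2 to Creb3.

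The genotype difference within each sex was taken from 1 model of all 16 mice with 1 mean per group. In each sex 6 of the 9 genes were called, where 18% of all genes were called in females and 34.9% in males. The log2 fold change of Ern1 was 2.31 ± 0.21 (SE) in females and 2.59 ± 0.22 in males, and that of Atf6 was 1.28 ± 0.12 in females and 1.71 ± 0.12 in males. The sign was the same in both sexes for 7 of the 9 genes, the exceptions being the uncalled Atf6b and Mbtps1. After adjustment 0 of the 9 were called in the interaction test of edgeR, where 0.115% of all genes passed. At an unadjusted p under 0.05 there were 2 of 9. The share of all genes at that unadjusted threshold was not counted, so the 2 cannot be set against it. The difference of males from females for Atf6 was 0.42 with a 95% interval from 0.06 to 0.79 (adjusted p = 0.303, edgeR). DESeq2 called 0 of 9 as well, where 1.85% of all genes tested were called with a positive and 1.03% with a negative interaction.

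Isoform shares were taken as the percent of a gene's TPM in each mouse. Ern1-201, the full-length coding transcript of 22 exons, held 97.0% ± 4.28 (SD, n = 8) of the Ern1 TPM in WT and 96.9% ± 2.85 in OPA1 BKO mice (exact permutation p = 0.932). Ern1-204 held 2.003% and 1.66% and Ern1-205 held 0.976% and 0.497%, while Ern1-202 and Ern1-203 had 0 counts in WT mice and at least 1 count in 1 OPA1 BKO mouse each. Atf6-201 held 100% in every WT mouse and 99.96% ± 0.08 (SD, n = 8) in OPA1 BKO mice (exact permutation p = 0.467). The annotation holds only 2 entries for Atf6, of which 1 is coding and the other, Atf6-202, is a retained intron. Spliced Atf6 reads can hardly fall elsewhere than on Atf6-201, so its share says little on isoform use. The transcript-level log2 fold change was 1.52 ± 0.10 (SE) for Atf6-201 and 2.48 ± 0.16 for Ern1-201.

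Of Ern1, Atf6 and Xbp1, several transcripts were in use for Xbp1. Xbp1-201 held 79.3% ± 2.85 (SD, n = 8) of the TPM in WT, from 74.8% to 84.2%, and 81.2% ± 3.65 in OPA1 BKO mice, from 75.2% to 86.5%. The difference of 1.90 percentage points was within the spread of the mice (exact permutation p = 0.264). The retained-intron transcript Xbp1-202 held 8.50% ± 1.91 and 7.54% ± 1.78, Xbp1-204 held 6.56% ± 2.57 and 6.08% ± 1.97, and Xbp1-203 held 5.63% ± 1.40 and 5.18% ± 2.03 in WT and OPA1 BKO mice (SD, n = 8). Only 54.0% of the 31-base words of Xbp1-201 and 29.8% of those of Xbp1-204 were found in no other Xbp1 transcript, so that the split between them is an estimate.

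**Figure D5:**
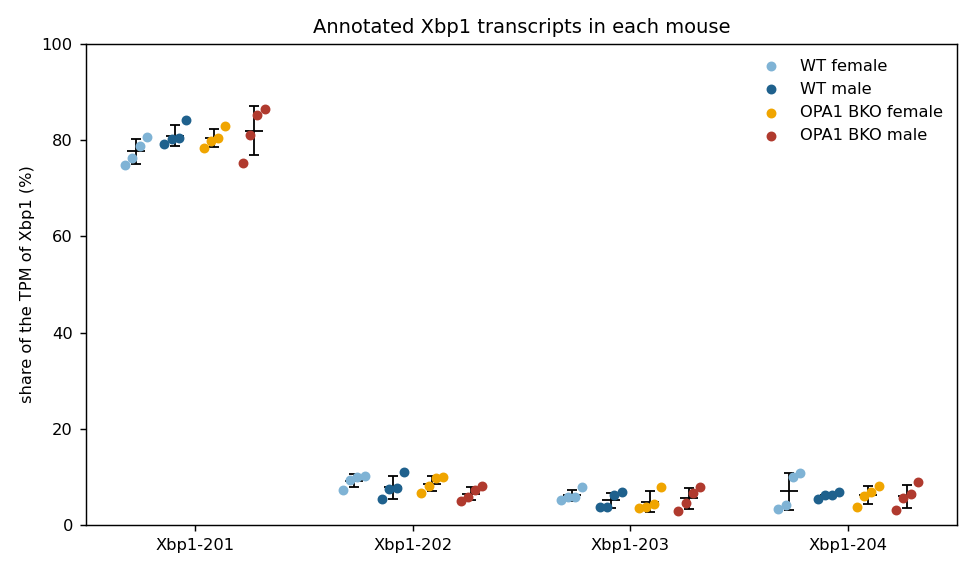
Share of the Xbp1 TPM held by each annotated transcript in every mouse, in percent, by genotype and sex. Points are mice and bars the mean ± SD (n = 4 per group). Xbp1-201 lies between 74.8% and 86.5% in all 16 mice, and the genotypes overlap for all 4 transcripts.

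Transcripts of the 9 genes were also tested one by one. Of all 40321 transcripts tested, 8.76% were higher in OPA1 BKO mice, and among those of the 9 genes the transcripts Ern1-201, Atf6-201, Traf2-201, Traf2-202, Creb3l2-201 and Mbtps2-201 were called higher. Creb3-201 was lower at -0.24 with TMM scaling (adjusted p = 0.0342, edgeR), and Xbp1-201 was at 0.27 and missed the threshold (adjusted p = 0.055, edgeR). Transcript usage, the change of a transcript against its own gene, was called for 0 of 21 transcripts of the 6 genes with 2 or more transcripts that passed the filter, with 0 at an unadjusted p under 0.05 in edgeR. Over all genes 1.18% of transcripts were called for usage. The diffSplice test of limma also called 0 of the 21, with 2 at an unadjusted p under 0.05. Shares over all transcripts were not counted for the limma test, so its counts cannot be set against them. For Ern1, Atf6 and Creb3l2 a single transcript passed the filter, and no usage test was made.

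Relations between the genes were computed within each genotype, since pooled mice form 2 clusters. Ern1 and Atf6 went together in WT mice with r = 0.875 (permutation p = 0.00635, adjusted p = 0.0254 over 4 relations) and rho = 0.738 (permutation p = 0.0458, adjusted p = 0.115). With the mean of each sex removed r was 0.809, and with library size alone it was 0.872. Without the 2 mice farthest from the median of Ern1 r was 0.457. That removal narrows the range of Ern1, which lowers r for a true relation too. It therefore cannot tell whether the relation rests on those mice. In OPA1 BKO mice the values for Ern1 and Atf6 were r = 0.521 (permutation p = 0.187, adjusted p = 0.250) and rho = 0.405 (permutation p = 0.327, adjusted p = 0.436), and r was 0.204 without the 2 farthest mice. Atf6 and Xbp1 had r = 0.150 (permutation p = 0.721, adjusted p = 0.721) and rho = 0.048 (permutation p = 0.935, adjusted p = 0.935) in WT mice, and without the 2 farthest mice r turned to -0.715. In OPA1 BKO mice they had r = -0.756 (permutation p = 0.0291, adjusted p = 0.0582) and rho = -0.714 (permutation p = 0.0576, adjusted p = 0.115), and r was -0.510 without the 2 farthest mice. After adjustment only the Pearson r of Ern1 with Atf6 in WT mice stayed under 0.05, and its rho did not. Ern1 and Atf6 both have long main transcripts, and the trend with length was not removed here. Its part in their relation was not tested.

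Genes whose deviations from the 4 group means were most like those of the sensor genes over the 16 mice were found among 13586 genes. These correlations share libraries and depth and are given as a description. For Ern1 they were Socs4 (r = 0.980) and Kbtbd2 (r = 0.9749), for Atf6 they were Trip12 (r = 0.936) and Rabep1 (r = 0.916), and for Xbp1 they were Ecm1 (r = 0.818) and Gm43126 (r = 0.807). Among the 9 genes, the deviations of Ern1 went with those of Mbtps2 (r = 0.795) and Atf6 (r = 0.746), and those of Xbp1 with Creb3l2 (r = 0.699).

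Promoter windows from 250 bases before to 50 bases after the start site were held by RefSeq (GRCm38.p6) for 8 of the 9 genes, all but Atf6. Both strands were searched for the ER stress elements ERSE (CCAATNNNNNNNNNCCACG) and ERSE-II (ATTGGNCCACG), the XBP1 and ATF6 element UPRE (TGACGTGG) and the ATF4 element CARE (TGATGNAA). The count of windows with a match was 0 of 8 for each motif. Of 32544 windows of the same length, 0.12% held ERSE, 0.037% ERSE-II, 0.682% UPRE and 3.91% CARE.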

How the data were processed

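BAT RNA from 16 mice (4 per genotype and sex, grouped by the labels) was prepared with the TruSeq mRNA Stranded kit. The labels name no pairs, litters or batches, and each library was taken as 1 mouse, so p-values measure the spread between libraries. The authors deposited Kallisto 0.45.0 output with an estimated count and a TPM per transcript. The deposited estimated count carries no normalization between mice. The deposited TPM allows for effective length and sums to the same total in every mouse. The submitters' processing notes name the build mm10. Index and strand setting are not given in the sources used here. The 9 genes and the lists were chosen with earlier results of these data known.

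Of 135308 transcripts, 133284 were joined to 51060 genes by identifier, version removed, through GENCODE M21. The unmatched held 0.483% to 0.730% of the counts. Gene sums were rounded, filtered by filterByExpr (minimum count 10, minimum total 15), scaled by TMM and fitted in edgeR 4.0.16 (R 4.3.3, quasi-likelihood test, term for sex, Benjamini-Hochberg over 15632 genes, threshold 0.05). Transcripts were rounded and tested likewise, and usage was tested by diffSpliceDGE. Single values used exact two-sided permutation tests (scipy 1.17.1). The tests were tried on simulated data. Named genes are the 9, Opa1, Eif2ak3, the 3 highest and 3 lowest called genes of each list with a mean of at least 1 CPM, all RIDD, S1P and S2P client and SREBP retention genes, and the 2 genes most like each of Ern1, Atf6 and Xbp1; Dnajb9, Rtcb and Ern2 were added after their values were seen.

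Alternatives were DESeq2 1.42.0, RLE size factors, library size alone, no mitochondrial transcripts, no filter, no sex term, limma 3.58.1 on log2(TPM + 0.5), counts scaled from TPM, each sex alone and each mouse left out. Values for each sex alone are contrasts within the model of all 16 mice with 1 mean per group. Removal of trends with length or GC content, the fit without the 6 muscle-rich mice, the share of Xbp1-201 and the ratios were added after seeing the data. The planned share of Xbp1 without its 26-base piece could not be computed.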

Additional observations from a re-analysis of the deposited data

Results flagged for a closer look

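Of 48 groups of 4 mice examined for a single mouse far from the other 3, 5 held one. This count cannot be set against a chance rate, because isoform shares have a ceiling of 100% at which mice tie. Mbtps2 was at 10.03 CPM in the OPA1 BKO male S12, below the other 3 males of its group. The share of Ern1-201 was 90.1% in the same mouse, below the other 3, and 99.0% in the OPA1 BKO female S06, above the other 3. The share of Atf6-201 was 99.8% in S12 and 99.9% in S06, where the other mice of their groups were at 100%, and each of these rests on about 1 estimated count of Atf6-202. S12 had the fewest total counts of the 16 mice, 13607283.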

How the results depend on the processing

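Ern1, Atf6, Mbtps2, Traf2 and Creb3l2 kept their direction and call in all 29 alternatives. With library size alone and with limma on log2(TPM + 0.5), 9 of the 9 genes were higher and 0 lower; Creb3 was then at 0.20 and 0.67 and Mbtps1 at 0.55 and 0.81 (log2), and over all genes 10869 and 13480 were higher and 373 and 118 lower, against 3255 and 3157 with TMM. Mbtps1, close to 0, also changed sign with no filter (0.045), in males alone (0.068), with the GC trend removed (0.018) and without muscle-rich mice (0.0055), and ranged from -0.025 to 0.027 on leaving out 1 mouse. Atf6b was at -0.0802 in females alone. The share of Ern1-201 differed by 0.279 points as estimated counts and by -1.503 to 0.828 on leaving out 1 mouse. Atf6 with Xbp1 in OPA1 BKO mice had r = -0.600 with library size alone (permutation p = 0.115). The causes were not tested. The interaction gave 15 higher and 3 lower genes in edgeR and 227 and 127 in DESeq2. On leaving out 1 mouse the count of higher genes was 5 to 6 and of lower genes 1. No paired analysis was possible because the labels name no pairs or litters. The paper describes the WT mice as littermate controls, and shared litters were not modelled. Alternatives for the spliced Xbp1 share were not run because the annotation has no such transcript. The depth limits the minor transcripts of Ern1 and Atf6, which had few counts.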
